A study of Mus musculus with 34 samples.

Results

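Expression of 31 genes of cholesterol and fatty acid synthesis was measured by RNA-seq in mouse colorectal cancer cells treated with encorafenib, which blocks the mutant BRAF kinase. The genes were chosen by symbol from textbook pathways, and all 31 were present among the 14107 genes of the count table. They comprise 7 genes of the mevalonate pathway, 11 of squalene and the later sterol steps, 4 regulators and sterol carriers, 5 of fatty acid synthesis and 4 desaturases. The lines were named NaJa-D, NaJa-F or NaJa-G and were cultured with 0.5 µM encorafenib or with its solvent DMSO for 1 day or 5 days, which gave 12 groups and 34 libraries. Each group had 3 libraries, except that NaJa-F with encorafenib and NaJa-G with DMSO had 2 each at day 5.

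The genotype given for all lines, DMSO controls included, is VillinCreERT2::BrafV600E/+::Trp53R172H::APCdel on the C57BL/6N strain, so that no group lacks the engineered alleles. Recombination was driven by a Cre recombinase under the promoter of the epithelial gene Villin, induced in organoids before transplantation into the colon. Each line was grown out of the peritoneal fluid of a single recipient mouse, and a difference between lines therefore cannot be told apart from a difference between those isolates. The libraries of a group share a line, and the labels do not say whether they came from separate cultures, so p-values measure only the spread between these libraries, which may be technical. Serum was present in the medium throughout. All cultures received fresh medium with drug or DMSO at the start, and those of day 5 received it again during the treatment. Cultures of both days were plated at the same time, and the paper reports that their confluence was consistent before harvest.

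Libraries held 46007050 to 80121299 counts. Values are given as CPM, the read counts of a gene relative to the library total, after scaling by the trimmed mean of M values (TMM), and fold changes on the log2 scale with their standard error (SE). A gene was called higher or lower where the limma fit of all libraries gave a p below 0.01 after Benjamini-Hochberg adjustment across the 14107 genes. Of 8 epithelial markers all were measured, with Epcam at 730 to 1180 CPM in NaJa-D and 65.1 to 150 CPM in NaJa-G. Cdh1, Krt8 and Krt18 were at 1140 to 1850, 956 to 2510 and 807 to 1550 CPM in NaJa-D. In NaJa-G they were at 494 to 848, 623 to 1250 and 684 to 1530 CPM. Cdx2 was at 12.4 to 24.6 CPM in NaJa-D, 41.8 to 65.3 CPM in NaJa-F and 1.14 to 9.88 CPM in NaJa-G. The enterocyte markers Vil1, Krt20 and Lgals4 stayed at or below 21.7 CPM in every library. Of the markers of other cells, 0 of 3 B cell genes and 2 of 6 macrophage genes were in the table, the latter with a summed level of at most 10.2 CPM, and 1 of 4 adipocyte genes was there, at 4.15 CPM or less. One library labelled NaJa-D by its title (DMSO day 1 replicate 3) carries NaJa-G in another field. It was kept in NaJa-D, since its log2 CPM correlated with the other libraries of that group at 0.995 or more and with NaJa-G DMSO day 1 at 0.920 or less. Without it, the number of the 31 genes called was 13 in place of 15 for encorafenib in NaJa-D at day 1, 19 with and without it for DMSO over time in NaJa-D, 26 with and without it for NaJa-F against NaJa-D and 24 in place of 25 for NaJa-G against NaJa-D. For the change of the response between days in NaJa-D it was 3 in place of 5. For the day 1 response it was 3 in place of 6 between NaJa-F and NaJa-D and 19 with and without it between NaJa-G and NaJa-D.

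Cholesterol is built from acetyl-CoA through mevalonate, isoprenoid units, squalene and lanosterol, and fatty acids are built from the same acetyl-CoA through malonyl-CoA. Most enzymes of both routes are transcribed under the sterol regulatory element binding proteins SREBP1 and SREBP2, the products of Srebf1 and Srebf2. These are membrane proteins of the endoplasmic reticulum that are held back by the INSIG proteins when sterols are plentiful and are cleaved and sent to the nucleus when sterols run low. SREBPs bind together with the factors NF-Y and SP1, and the enzymes therefore tend to rise and fall together.

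Promoter sequences are shown for the motifs of SREBPs, NF-Y and SP1. The part of these motifs in the results that follow was not tested. RefSeq windows of GRCm38.p6 were found for 24 of the 31 genes, and the 250 bases before the start were searched on both strands for 3 motifs. These were CCAAT, the box bound by NF-Y, GGGCGG, a box bound by SP1, and TCACNCCAC, a core form of the sterol regulatory element. The ends of the NF-Y and SP1 boxes can share bases on opposite strands, but no matches overlapped in the stretches shown. The NF-Y box was found in 19 of the 24 genes (79.2%), in 37.5% of all 27025 genes with a window and in 40.5% of the genes of the count table with one. The SP1 box was found in 20 of 24 (83.3%), against 35.4% and 63.9%. The sterol element was found in 1 of 24 (4.17%), the promoter of Hmgcs1, against 1.22% and 1.29%. The windows were not matched for base composition, and a match describes letters, not a bound site. In the stretches below, the 180 bases before the start are given 5′ to 3′ on the strand of the gene, with capitals for the NF-Y box on either strand and for the sterol element.
Hmgcs1 (HMG-CoA synthase, chr13:119690171-119690350, + strand): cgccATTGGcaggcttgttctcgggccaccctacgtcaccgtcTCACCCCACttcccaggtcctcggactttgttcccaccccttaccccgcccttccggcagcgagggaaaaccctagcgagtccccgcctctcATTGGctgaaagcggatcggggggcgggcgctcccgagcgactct
Mvk (mevalonate kinase, chr5:114444089-114444268, + strand): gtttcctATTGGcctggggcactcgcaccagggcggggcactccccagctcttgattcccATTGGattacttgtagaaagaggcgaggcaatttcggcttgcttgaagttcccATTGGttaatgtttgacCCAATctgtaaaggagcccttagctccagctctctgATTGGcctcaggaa
Mvd (mevalonate diphosphate decarboxylase, chr8:122443423-122443602, - strand): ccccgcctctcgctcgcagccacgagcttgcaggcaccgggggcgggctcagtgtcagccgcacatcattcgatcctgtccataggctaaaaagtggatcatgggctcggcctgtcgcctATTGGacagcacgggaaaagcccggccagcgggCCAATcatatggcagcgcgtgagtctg
Ebp (sterol isomerase, chrX:8193513-8193692, - strand): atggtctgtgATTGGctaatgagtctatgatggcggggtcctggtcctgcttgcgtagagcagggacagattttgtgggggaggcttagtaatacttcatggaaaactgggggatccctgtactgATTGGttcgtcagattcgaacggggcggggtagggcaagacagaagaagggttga
Acly (ATP citrate lyase, chr11:100528001-100528180, - strand): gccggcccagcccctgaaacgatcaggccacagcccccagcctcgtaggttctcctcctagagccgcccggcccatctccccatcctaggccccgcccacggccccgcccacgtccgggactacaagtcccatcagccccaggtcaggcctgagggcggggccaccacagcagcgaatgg
The Hmgcs1 stretch holds the sterol element and 2 NF-Y boxes. Mvk holds 5 NF-Y boxes in the same length, and Mvd and Ebp hold 2 each. Acly, which makes cytosolic acetyl-CoA for both routes, is shown as a member with none of them and with 4 SP1 boxes. The 5 members with a window and no NF-Y box were Acaca, Acat2, Acly, Elovl6 and Fads2, and all but Acat2 belong to fatty acid synthesis and desaturation. All 9 genes of the sterol steps with a window had the box, as did 5 of 6 of the mevalonate pathway. None of these stretches overlaps an exon of GENCODE M21.

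Of the 31 genes, those called between the days in DMSO were all higher at day 5 than at day 1, in each of the 3 lines. In NaJa-G 30 of the 31 genes were called higher and 0 lower, against 17.2% and 16.8% of all genes, with a median log2 fold change of 0.68. The exception was Fasn, fatty acid synthase, with 0.07 ± 0.10 (SE, adjusted p = 0.63). In NaJa-D 19 genes were higher and 0 lower, against 13.7% and 15.3% of all genes, and the median was 0.43. In NaJa-F 15 were higher and 0 lower, against 9.73% and 7.01%, and the median was 0.26. The median of all genes was 0.01 or less in size in these 3 comparisons. All 7 mevalonate genes rose in NaJa-D and NaJa-G and 4 of 7 in NaJa-F. Insig1, whose product retains SREBPs in the endoplasmic reticulum and which is itself a target of SREBPs, had the largest rise of the 31 genes in NaJa-D, at 1.37 ± 0.07 (SE, adjusted p = 2.26e-14). In NaJa-G the largest rises were those of the stearoyl-CoA desaturases Scd2, at 1.66 ± 0.09 (SE, adjusted p = 1.08e-14), and Scd1. In bulk RNA of this kind, a change in the share of cells that express a gene and a change of its level per cell cannot be told apart.

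NaJa-G DMSO day 5 rests on 2 libraries, and these stood above all 9 other NaJa-G libraries for 23 of the 31 genes, which held for 6.97% of all genes. The corresponding count for the 3 NaJa-D DMSO day 5 libraries against the other 9 was 15 of 31 (3.23% of all genes), and for the 3 NaJa-F libraries against the other 8 it was 10 of 31 (5.47%). Without the NaJa-G DMSO day 5 replicate 3, 26 genes were still called higher over time. Levels of genes used here as markers of other cells moved too. The paper reports that host cells were lost over passages, judged by PCR of the Apc and Trp53 alleles. It describes NaJa-G as mesenchymal-like, so the tumour cells themselves may express fibroblast markers. The summed level of 5 fibroblast markers in NaJa-G was 54.1 to 73.4 CPM in DMSO at day 1 and 19.2 to 21.7 CPM at day 5, and 90.2 to 105 CPM and 111 to 125 CPM in encorafenib, while it stayed at or below 8.64 CPM in the other 2 lines. Of these 5 markers, 3 were called lower and 1 higher over time in NaJa-G DMSO. The summed level of 8 epithelial markers in NaJa-G DMSO was 2630 to 3250 CPM at day 1 and 1970 to 2260 CPM at day 5. The part of these markers in the results was not tested.

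The days were also compared within encorafenib, a comparison added after the data had been seen. The change over time was not tested for a difference between lines. In NaJa-D 15 genes were higher and 0 lower at day 5 than at day 1, against 12.5% and 14.2% of all genes, with a median of 0.24. In NaJa-F 6 were higher and 1 lower, against 10.2% and 12.3%, with a median of 0.10. In NaJa-G 9 were higher and 8 lower, against 20.6% and 20.4%, with a median of -0.08. The 8 genes that fell in NaJa-G under encorafenib included 4 of the 7 mevalonate genes (Acat2, Mvk, Pmvk and Mvd), 3 sterol genes (Fdft1, Tm7sf2 and Ebp) and Me1, the cytosolic malic enzyme. The 9 that rose included 3 desaturases (Scd1, Fads1 and Fads2) and 3 fatty acid genes (Acaca, Fasn and Elovl6).

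**Figure D1:**
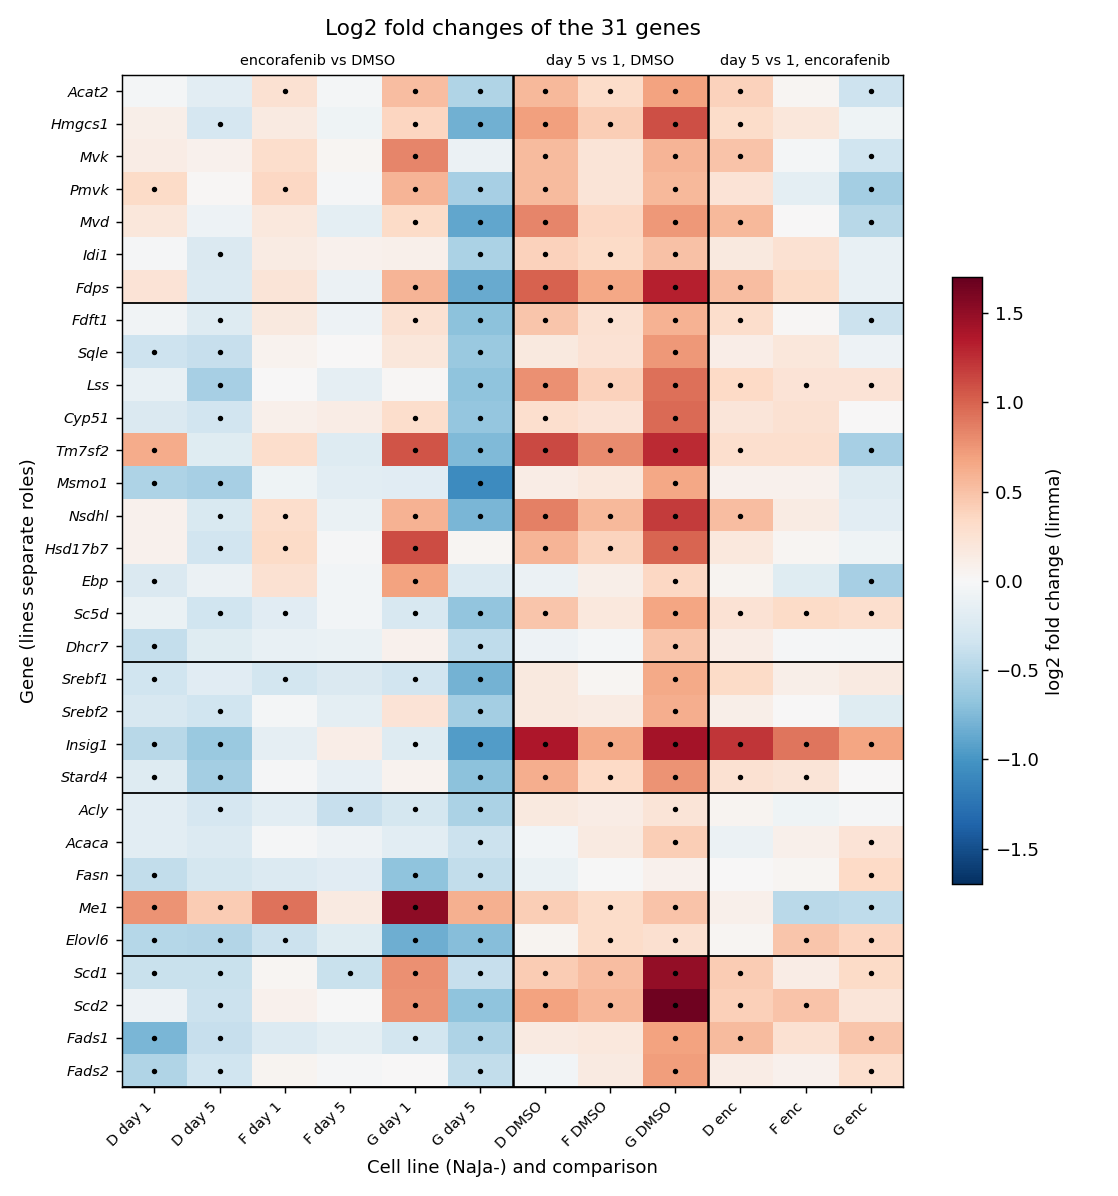
Log2 fold changes of the 31 genes (rows, grouped by role) for encorafenib against DMSO and for day 5 against day 1 in either treatment (columns), with a dot where the adjusted p is below 0.01. The DMSO time columns hold 0 genes called lower and 19 (NaJa-D), 15 (NaJa-F) or 30 (NaJa-G) called higher, and the NaJa-G encorafenib column turns from mostly positive at day 1 to negative for 27 called genes at day 5.

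Encorafenib was compared with DMSO in each line and at each day. The question was how these genes respond to inhibition of mutant BRAF. At day 1 in NaJa-G 15 genes were higher and 7 lower, against 35.3% and 28.7% of all genes, with a median of 0.24. In NaJa-D 3 were higher and 12 lower, against 23.7% and 21.2%, with a median of -0.18. In NaJa-F 5 were higher and 3 lower, against 17.5% and 12%, with a median of 0.07. At day 5 the called genes were lower with few exceptions. In NaJa-G 27 were lower and 1 higher, against 24.7% and 28.5% of all genes, with a median of -0.64. In NaJa-D 19 were lower and 1 higher, against 14.7% and 18.3%, with a median of -0.29. In NaJa-F 2 were lower and 0 higher, against 8.50% and 9.70%, with a median of -0.09. The 2 genes lower in NaJa-F were Acly and Scd1, and the 1 gene higher in NaJa-D and in NaJa-G was Me1. The day 5 comparisons and the comparisons over time in DMSO share the DMSO day 5 libraries, so they are not independent of each other. Markers of the mesothelium, the lining of the peritoneal cavity, moved with encorafenib as well. Of its 4 markers 3 were in the table, and 2 or 3 of them were called higher with 0 lower in each of the 6 comparisons. Their summed level in NaJa-G was 558 to 724 CPM at day 1 and 497 to 565 CPM at day 5 in DMSO, and 1330 to 1520 CPM and 1530 to 1740 CPM in encorafenib. Nearly all of this sum was Msln, at 496 to 1740 CPM over the NaJa-G libraries. Upk3b and Lrrn4 stayed at or below 5.14 and 2.45 CPM there. In NaJa-D Msln was at 1220 to 3510 CPM. Of the 5 fibroblast markers, 4 were called higher and 0 lower with encorafenib in NaJa-G at each day. The part of these markers in the responses was not tested.

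By role, 6 of 7 mevalonate genes and 6 of 11 sterol genes rose at day 1 in NaJa-G, while 1 sterol gene (Sc5d, lathosterol oxidase) fell. Of the mevalonate genes, Mvd lost its call without DMSO day 1 replicates 2 and 3 and without each of the 3 encorafenib day 1 libraries, with values from 0.25 to 0.34. The regulators Srebf1 and Insig1 fell, and Srebf2 and Stard4, a sterol carrier, were not called. Of the fatty acid genes, Acly, Fasn and Elovl6 fell and Me1 rose. Of the desaturases, Scd1 and Scd2 rose and Fads1 fell. At day 5 in NaJa-G the genes not called were Mvk, Hsd17b7 and Ebp, with log2 fold changes of -0.09, 0.04 and -0.23.

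**Figure D2:**
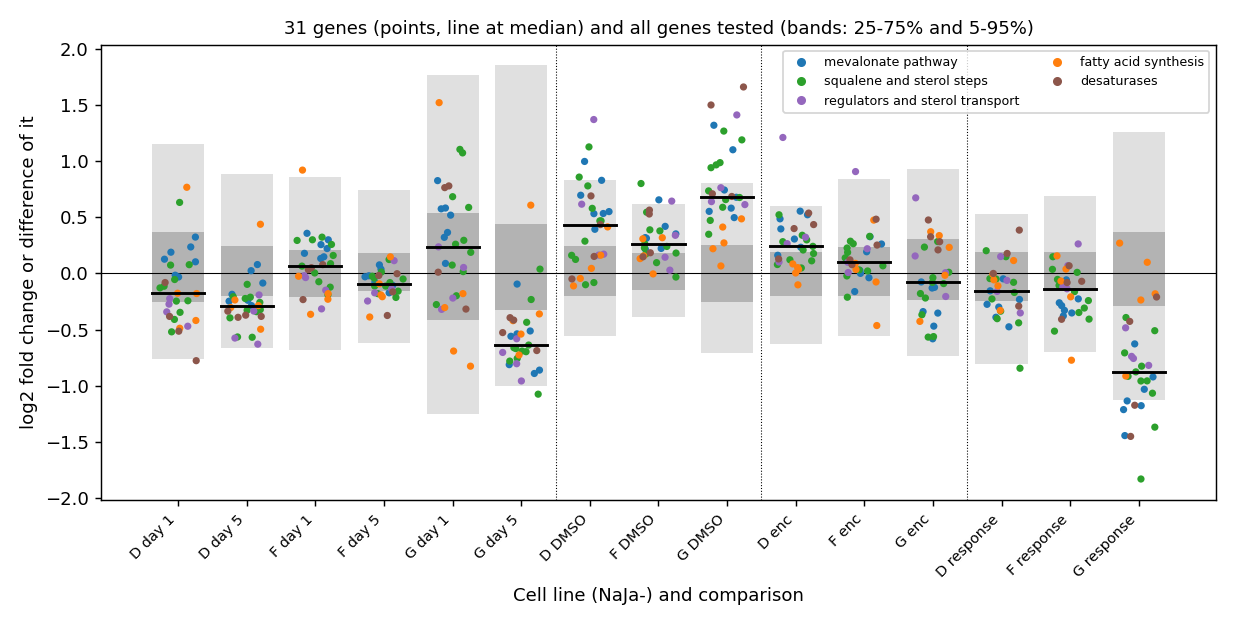
Log2 fold changes of the 31 genes (points coloured by role, black line at their median) beside the range of all 14107 genes (dark band 25% to 75%, light band 5% to 95%) for encorafenib against DMSO, for day 5 against day 1, and for the change of the encorafenib response between days (response) at the right. The medians of the 31 genes lie above the dark band in the DMSO time columns and in the encorafenib time column of NaJa-D. For encorafenib against DMSO they lie below it in NaJa-D and NaJa-G at day 5.

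Among the mevalonate genes, Pmvk and Fdps had the largest mean size of response over the 6 encorafenib comparisons and are given by library, as are the leading genes of the other roles. Pmvk encodes phosphomevalonate kinase. Pmvk in NaJa-D was at 24.0, 22.7 and 24.8 CPM in DMSO at day 1, 31.4, 35.2 and 37.1 CPM in DMSO at day 5, 27.7, 29.2 and 33.0 CPM in encorafenib at day 1 and 36.5, 31.7 and 37.7 CPM in encorafenib at day 5. Pmvk in NaJa-F was at 26.5, 27.6 and 24.9 CPM in DMSO at day 1, 30.9, 30.8 and 30.0 CPM in DMSO at day 5, 32.2, 36.3 and 32.7 CPM in encorafenib at day 1 and 31.2 and 29.2 CPM in encorafenib at day 5. Pmvk in NaJa-G was at 23.8, 18.5 and 19.7 CPM in DMSO at day 1, 26.3 and 34.4 CPM in DMSO at day 5, 30.9, 29.6 and 31.7 CPM in encorafenib at day 1 and 20.5, 21.8 and 19.4 CPM in encorafenib at day 5. In each line the encorafenib day 1 libraries stood above the DMSO day 1 libraries without overlap. At day 5 the treatments overlapped in NaJa-D and NaJa-F, and in NaJa-G the encorafenib libraries were all lower. The day 1 log2 fold change was 0.32 ± 0.10 (SE, adjusted p = 0.00659) in NaJa-D, 0.36 ± 0.09 (SE, adjusted p = 0.00219) in NaJa-F and 0.57 ± 0.09 (SE, adjusted p = 3.62e-06) in NaJa-G. At day 5 it was -0.56 ± 0.10 (SE, adjusted p = 3.58e-05) in NaJa-G, and without the DMSO day 5 replicate 3 of NaJa-G it was -0.36 with an adjusted p of 0.0124. The NaJa-D call at day 1 was lost in 7 of 15 alternatives, among them without each of DMSO day 1 replicates 1 to 3 and encorafenib day 1 replicates 2 and 3, and the values then ranged from 0.22 to 0.34. The NaJa-F call was lost without DMSO day 1 replicate 3 (0.32, adjusted p = 0.0165) and without encorafenib day 1 replicate 2 (0.30, adjusted p = 0.0201).

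Fdps encodes farnesyl diphosphate synthase, which makes the isoprenoid shared by sterols and prenylated proteins. It was the least abundant of the 31 genes per length in NaJa-D DMSO day 1, at 2.46 CPM per kb of exon, and 26.2% of its 50-base stretches occur in transcripts of other genes, so its counts are uncertain. Fdps in NaJa-D was at 9.74, 10.8 and 10.4 CPM in DMSO at day 1, 19.8, 23.4 and 19.1 CPM in DMSO at day 5, 11.7, 12.8 and 11.99 CPM in encorafenib at day 1 and 19.9, 16.7 and 16.1 CPM in encorafenib at day 5. Fdps in NaJa-F was at 9.54, 9.29 and 9.18 CPM in DMSO at day 1, 14.1, 14.6 and 15.4 CPM in DMSO at day 5, 9.83, 11.8 and 11.1 CPM in encorafenib at day 1 and 14.5 and 12.8 CPM in encorafenib at day 5. Fdps in NaJa-G was at 10.1, 9.58 and 9.91 CPM in DMSO at day 1, 23.8 and 25.4 CPM in DMSO at day 5, 15.2, 14.5 and 14.6 CPM in encorafenib at day 1 and 11.3, 16.1 and 13.7 CPM in encorafenib at day 5. The DMSO libraries rose between the days in every line without overlap, and NaJa-G DMSO day 5 was the highest group. Over time in DMSO the log2 fold change was 1.00 ± 0.11 (SE, adjusted p = 2.74e-08) in NaJa-D, 0.65 ± 0.10 (SE, adjusted p = 2.22e-05) in NaJa-F and 1.32 ± 0.10 (SE, adjusted p = 3.47e-11) in NaJa-G. Encorafenib gave 0.58 ± 0.10 (SE, adjusted p = 7.06e-06) at day 1 in NaJa-G and -0.86 ± 0.10 (SE, adjusted p = 1.31e-08) at day 5. In NaJa-D and NaJa-F no encorafenib difference of Fdps was called at either day.

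The other mevalonate genes were Acat2, Hmgcs1, Mvk, Mvd and Idi1. In NaJa-G at day 1 the largest rise of the 7 was that of Mvk, at 0.83 ± 0.10 (SE, adjusted p = 1.31e-08), and at day 5 the largest fall was that of Mvd, at -0.89 ± 0.12 (SE, adjusted p = 1.51e-07). Hmgcs1, which condenses acetyl-CoA units to HMG-CoA, went from 0.36 ± 0.06 (SE, adjusted p = 1.56e-06) at day 1 to -0.81 ± 0.06 (SE, adjusted p = 1.12e-11) at day 5 in NaJa-G. Acat2, the cytosolic thiolase at the first step, shares 39.1% of its 50-base stretches with transcripts of other genes, mainly Acat3, and its counts are uncertain. Idi1, which isomerises the isoprenoid units, was not called at day 1 in any line. It shares 25.3% of its 50-base stretches with transcripts of other genes, and its counts are uncertain as well.

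Tm7sf2 encodes a sterol reductase that acts after lanosterol demethylation. Tm7sf2 in NaJa-D was at 15.1, 18.5 and 15.2 CPM in DMSO at day 1, 35.2, 38.9 and 32.3 CPM in DMSO at day 5, 24.8, 26.0 and 24.4 CPM in encorafenib at day 1 and 32.8, 30.1 and 28.8 CPM in encorafenib at day 5. Tm7sf2 in NaJa-F was at 12.3, 11.2 and 11.8 CPM in DMSO at day 1, 19.6, 21.2 and 20.7 CPM in DMSO at day 5, 14.9, 14.9 and 13.6 CPM in encorafenib at day 1 and 17.2 and 18.1 CPM in encorafenib at day 5. Tm7sf2 in NaJa-G was at 18.1, 18.9 and 19.4 CPM in DMSO at day 1, 40.0 and 50.7 CPM in DMSO at day 5, 40.0, 37.9 and 40.8 CPM in encorafenib at day 1 and 26.2, 28.6 and 25.6 CPM in encorafenib at day 5. In NaJa-G the encorafenib day 1 libraries were about as high as the lower of the DMSO day 5 libraries, and every NaJa-G encorafenib day 5 library was below every encorafenib day 1 library. The day 1 response was 1.07 ± 0.08 (SE, adjusted p = 9.72e-13) in NaJa-G and 0.63 ± 0.09 (SE, adjusted p = 1.31e-06) in NaJa-D. At day 5 it was -0.76 ± 0.08 (SE, adjusted p = 7.82e-09) in NaJa-G, and in NaJa-D it was -0.21 ± 0.08 (SE, adjusted p = 0.0286), which was not called. The change of the response between days was -1.83 ± 0.12 (SE, adjusted p = 3.24e-13) in NaJa-G, the largest of the 31 genes there, and -0.84 ± 0.12 (SE, adjusted p = 1.46e-05) in NaJa-D.

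Msmo1 encodes methylsterol monooxygenase, which removes methyl groups from lanosterol derivatives. Msmo1 in NaJa-D was at 472, 535 and 559 CPM in DMSO at day 1, 561, 619.8 and 526 CPM in DMSO at day 5, 325, 367 and 401 CPM in encorafenib at day 1 and 396, 380.2 and 377 CPM in encorafenib at day 5. Msmo1 in NaJa-F was at 267, 255 and 234 CPM in DMSO at day 1, 284, 286 and 283 CPM in DMSO at day 5, 236, 243 and 239 CPM in encorafenib at day 1 and 268 and 235 CPM in encorafenib at day 5. Msmo1 in NaJa-G was at 305, 285 and 284 CPM in DMSO at day 1, 473 and 446 CPM in DMSO at day 5, 256, 235 and 270.2 CPM in encorafenib at day 1 and 221, 217 and 216 CPM in encorafenib at day 5. In NaJa-D and NaJa-G the encorafenib libraries were below the DMSO libraries of the same day without overlap. The response was -0.52 ± 0.07 (SE, adjusted p = 7.26e-07) at day 1 and -0.56 ± 0.07 (SE, adjusted p = 3.15e-07) at day 5 in NaJa-D. In NaJa-G it was -0.20 ± 0.07 (SE, adjusted p = 0.0147) at day 1, which was not called, and -1.07 ± 0.08 (SE, adjusted p = 3.45e-12) at day 5, the largest fall of the 31 genes in that comparison. In NaJa-F neither day was called.

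Ebp encodes the isomerase that moves the double bond of the sterol ring. Ebp in NaJa-D was at 109, 131 and 130.3 CPM in DMSO at day 1, 116, 123 and 105 CPM in DMSO at day 5, 91.8, 100.3 and 121 CPM in encorafenib at day 1 and 109, 110.2 and 103 CPM in encorafenib at day 5. Ebp in NaJa-F was at 93.5, 91.7 and 82.6 CPM in DMSO at day 1, 94.5, 96.7 and 94.6 CPM in DMSO at day 5, 107, 109.5 and 103 CPM in encorafenib at day 1 and 92.7 and 91.5 CPM in encorafenib at day 5. Ebp in NaJa-G was at 118, 108 and 102 CPM in DMSO at day 1, 133 and 145 CPM in DMSO at day 5, 174, 166 and 185 CPM in encorafenib at day 1 and 115, 121 and 119 CPM in encorafenib at day 5. The NaJa-G encorafenib day 1 libraries were the highest of all 34, and in NaJa-D the encorafenib and DMSO libraries of day 1 overlapped. At day 1 the response was called in opposite directions, -0.25 ± 0.08 (SE, adjusted p = 0.00981) in NaJa-D and 0.68 ± 0.08 (SE, adjusted p = 1.27e-08) in NaJa-G, and the difference of these responses was 0.93 ± 0.11 (SE, adjusted p = 1.32e-07). The NaJa-D call was lost in 9 of 15 alternatives, among them without DMSO day 1 replicate 2 (-0.20, adjusted p = 0.0601), without DMSO day 1 replicate 3 (-0.23, adjusted p = 0.0394), without encorafenib day 1 replicate 1 (-0.16, adjusted p = 0.11) and without encorafenib day 1 replicate 2 (-0.22, adjusted p = 0.0405).

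**Figure D3:**
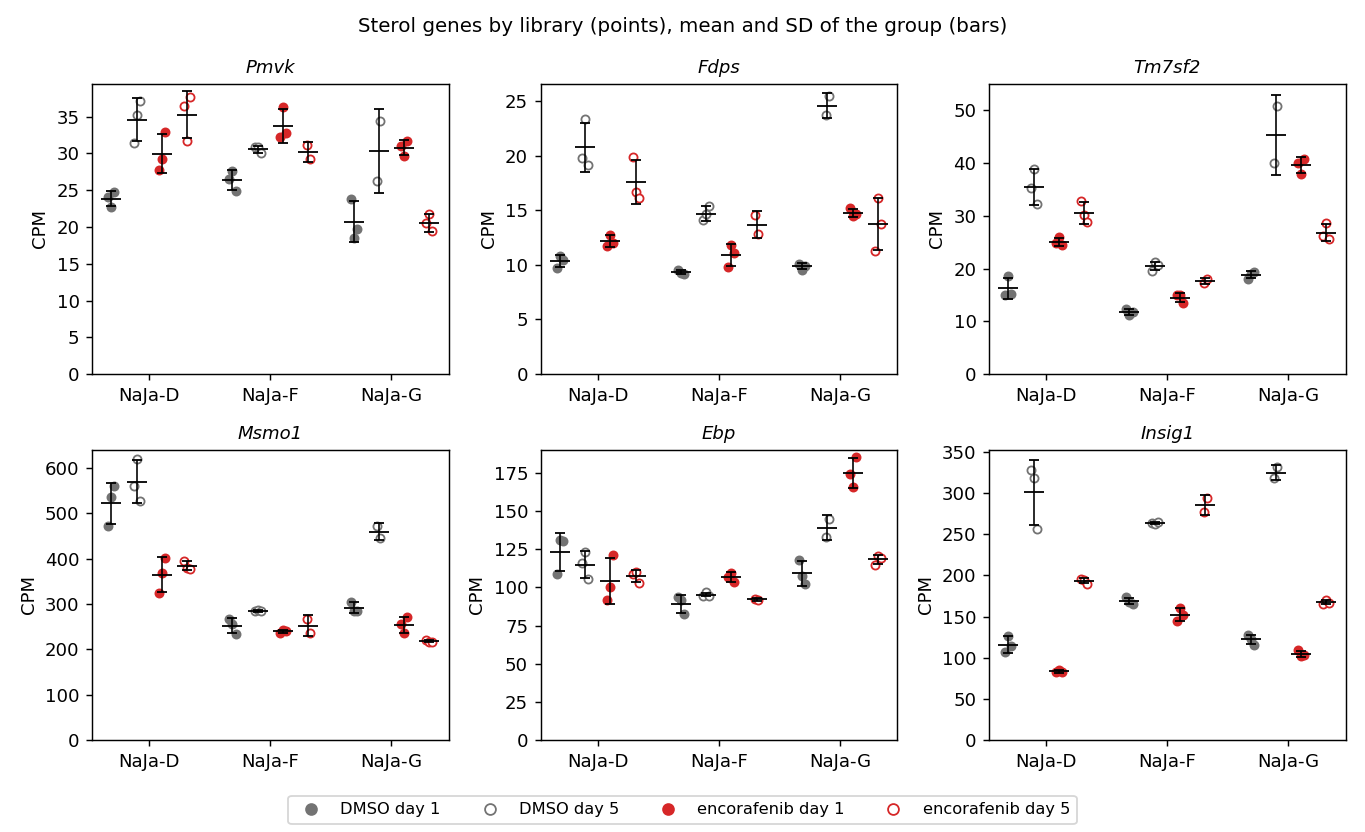
CPM of 6 sterol genes in every library (points, grey for DMSO and red for encorafenib, filled for day 1 and open for day 5) with the mean and SD of each group (bars) by cell line. In NaJa-G the open grey points (DMSO day 5) lie above the open red points (encorafenib day 5) for each of the 6 genes.

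Of the remaining sterol genes, Hsd17b7, Nsdhl, Fdft1 and Cyp51 rose in NaJa-G at day 1. Fdft1 shares 26.5% of its 50-base stretches with transcripts of other genes, and its counts are uncertain. Hsd17b7, a ketoreductase of the demethylation steps, rose most, at 1.10 ± 0.06 (SE, adjusted p = 1.57e-15), and was at 0.04 ± 0.07 (SE, adjusted p = 0.638) at day 5. Nsdhl, its partner in demethylation, went from 0.59 ± 0.08 (SE, adjusted p = 6.86e-08) to -0.78 ± 0.09 (SE, adjusted p = 7.45e-09). Cyp51, lanosterol demethylase, went from 0.29 ± 0.07 (SE, adjusted p = 0.00058) to -0.66 ± 0.08 (SE, adjusted p = 7.15e-08). Sqle, squalene epoxidase, was lower in NaJa-D at both days, with -0.35 ± 0.07 (SE, adjusted p = 0.000261) at day 1 and -0.39 ± 0.08 (SE, adjusted p = 8.86e-05) at day 5. In NaJa-G it was lower only at day 5, with -0.64 ± 0.08 (SE, adjusted p = 1.37e-07). Lss, which closes the ring to lanosterol, was lower at day 5 in NaJa-D and NaJa-G. Dhcr7, the last reductase of the route, was lower at day 1 in NaJa-D and at day 5 in NaJa-G. Sc5d was lower at day 1 in NaJa-F and NaJa-G, but the NaJa-F call was lost with each of the 6 libraries left out, with values from -0.20 to -0.17. At day 5 it was lower in NaJa-D and NaJa-G.

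Srebf1 encodes the SREBP that favours fatty acid genes. Srebf1 in NaJa-D was at 452, 569 and 496 CPM in DMSO at day 1, 605, 608 and 497 CPM in DMSO at day 5, 374, 379 and 442 CPM in encorafenib at day 1 and 493, 476 and 522 CPM in encorafenib at day 5. Srebf1 in NaJa-F was at 236, 239.9 and 219 CPM in DMSO at day 1, 239, 239 and 232 CPM in DMSO at day 5, 199, 186 and 174 CPM in encorafenib at day 1 and 178 and 224 CPM in encorafenib at day 5. Srebf1 in NaJa-G was at 248, 214 and 214 CPM in DMSO at day 1, 309 and 398 CPM in DMSO at day 5, 182, 177 and 182 CPM in encorafenib at day 1 and 190.5, 219.9 and 193 CPM in encorafenib at day 5. NaJa-D stood above the other lines in each treatment and day. At day 1 encorafenib lowered it in each line without overlap of libraries, with -0.34 ± 0.10 (SE, adjusted p = 0.00473) in NaJa-D, -0.31 ± 0.10 (SE, adjusted p = 0.00982) in NaJa-F and -0.32 ± 0.10 (SE, adjusted p = 0.00416) in NaJa-G. At day 5 the response was -0.80 ± 0.11 (SE, adjusted p = 3.53e-07) in NaJa-G and was not called in the other lines. The day 1 calls were close to the threshold. In NaJa-D the call was lost in 5 of 15 alternatives, among them without DMSO day 1 replicate 2 (-0.25, adjusted p = 0.0503) and encorafenib day 1 replicates 1 (-0.30, adjusted p = 0.0281) and 2 (-0.31, adjusted p = 0.0246). In NaJa-F it was lost in 10 of 15, with each of the 6 libraries left out among them, at values from -0.36 to -0.27. In NaJa-G it was lost in 3 of 15, without DMSO day 1 replicate 1 (-0.25, adjusted p = 0.0351) and encorafenib day 1 replicates 1 (-0.32, adjusted p = 0.0105) and 2 (-0.31, adjusted p = 0.0149).

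Insig1 was called higher over time in both treatments in each line. Insig1 in NaJa-D was at 107, 127 and 114 CPM in DMSO at day 1, 328, 318 and 256 CPM in DMSO at day 5, 82.5, 85.6 and 82.6 CPM in encorafenib at day 1 and 196, 194 and 190 CPM in encorafenib at day 5. Insig1 in NaJa-F was at 173, 167 and 165 CPM in DMSO at day 1, 263, 262 and 265 CPM in DMSO at day 5, 145, 160.4 and 151 CPM in encorafenib at day 1 and 277 and 294 CPM in encorafenib at day 5. Insig1 in NaJa-G was at 128, 123 and 116 CPM in DMSO at day 1, 318 and 331 CPM in DMSO at day 5, 109, 102 and 103 CPM in encorafenib at day 1 and 165, 169.8 and 167 CPM in encorafenib at day 5. Day 5 libraries were above day 1 libraries of the same line and treatment throughout. Over time in DMSO the log2 fold change was 1.37 ± 0.07 (SE, adjusted p = 2.26e-14) in NaJa-D, 0.64 ± 0.07 (SE, adjusted p = 3.33e-08) in NaJa-F and 1.41 ± 0.07 (SE, adjusted p = 1.27e-14) in NaJa-G. In encorafenib it was 1.21 ± 0.06 (SE, adjusted p = 4.29e-14) in NaJa-D, 0.91 ± 0.07 (SE, adjusted p = 4.55e-10) in NaJa-F and 0.67 ± 0.06 (SE, adjusted p = 1.31e-09) in NaJa-G. Encorafenib lowered Insig1 at both days in NaJa-D and NaJa-G, by up to -0.96 ± 0.07 (SE, adjusted p = 6.72e-12) in NaJa-G at day 5, and no difference was called in NaJa-F. The NaJa-G value at day 1, -0.22 ± 0.06 (SE, adjusted p = 0.0033), lost its call without either of DMSO day 1 replicates 1 and 2 or encorafenib day 1 replicates 2 and 3, with values from -0.21 to -0.19.

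Srebf2, which encodes the SREBP that favours sterol genes, was lower at day 5 in NaJa-D, at -0.33 ± 0.10 (SE, adjusted p = 0.00669), and in NaJa-G, at -0.58 ± 0.11 (SE, adjusted p = 3.84e-05). The NaJa-D call was lost without DMSO day 5 replicates 1 and 2 and without each of the 3 encorafenib day 5 libraries, with values from -0.35 to -0.25. At day 1 in NaJa-G Srebf2 was 0.24 ± 0.10 (SE, adjusted p = 0.0289), which was not called. Stard4, which carries cholesterol between membranes, was lower in NaJa-D at both days and in NaJa-G at day 5, where it was -0.70 ± 0.06 (SE, adjusted p = 4.19e-11).

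Me1 makes NADPH, the reducing agent of fatty acid and sterol synthesis, and 28.3% of its 50-base stretches occur in transcripts of other genes, so its counts are uncertain. Me1 in NaJa-D was at 140.2, 124 and 126 CPM in DMSO at day 1, 157, 173 and 189.9 CPM in DMSO at day 5, 213, 200.5 and 252 CPM in encorafenib at day 1 and 244, 228 and 231 CPM in encorafenib at day 5. Me1 in NaJa-F was at 172, 170.4 and 160.5 CPM in DMSO at day 1, 206, 209.6 and 207 CPM in DMSO at day 5, 310, 323 and 319 CPM in encorafenib at day 1 and 249 and 213 CPM in encorafenib at day 5. Me1 in NaJa-G was at 189, 171 and 170.1 CPM in DMSO at day 1, 244 and 250.4 CPM in DMSO at day 5, 492, 505 and 521 CPM in encorafenib at day 1 and 390.5, 365 and 374 CPM in encorafenib at day 5. The encorafenib libraries were above the DMSO libraries of the same line and day in each of the 6 comparisons without overlap, and the difference was called in 5. It was 0.77 ± 0.07 (SE, adjusted p = 4.65e-10) in NaJa-D, 0.92 ± 0.07 (SE, adjusted p = 3.32e-11) in NaJa-F and 1.52 ± 0.07 (SE, adjusted p = 8.04e-17) in NaJa-G at day 1. At day 5 it was 0.44 ± 0.07 (SE, adjusted p = 1.06e-05) in NaJa-D, 0.15 ± 0.08 (SE, adjusted p = 0.184) in NaJa-F and 0.61 ± 0.08 (SE, adjusted p = 2.91e-07) in NaJa-G. The response was smaller at day 5 by -0.77 ± 0.11 (SE, adjusted p = 7.65e-06) in NaJa-F and by -0.91 ± 0.11 (SE, adjusted p = 1.27e-07) in NaJa-G, and Me1 was the only 1 of the 31 genes for which this change was called in NaJa-F.

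Elovl6 encodes the elongase that turns palmitate into stearate. Elovl6 in NaJa-D was at 166, 185 and 191 CPM in DMSO at day 1, 199, 182 and 179 CPM in DMSO at day 5, 126, 131 and 129.9 CPM in encorafenib at day 1 and 133, 133 and 129.7 CPM in encorafenib at day 5. Elovl6 in NaJa-F was at 154, 152 and 148 CPM in DMSO at day 1, 183, 191 and 193 CPM in DMSO at day 5, 116, 119.9 and 118 CPM in encorafenib at day 1 and 177 and 152 CPM in encorafenib at day 5. Elovl6 in NaJa-G was at 167, 167 and 162 CPM in DMSO at day 1, 226 and 176 CPM in DMSO at day 5, 93.8, 89.7 and 96.5 CPM in encorafenib at day 1 and 122, 121 and 119.5 CPM in encorafenib at day 5. The encorafenib libraries were below the DMSO libraries of the same line and day in each of the 6 comparisons. The difference was -0.49 ± 0.06 (SE, adjusted p = 2.67e-07) in NaJa-D, -0.36 ± 0.06 (SE, adjusted p = 4.03e-05) in NaJa-F and -0.82 ± 0.06 (SE, adjusted p = 3.17e-12) in NaJa-G at day 1. At day 5 it was -0.50 ± 0.06 (SE, adjusted p = 3.02e-07) in NaJa-D and -0.72 ± 0.07 (SE, adjusted p = 1.15e-09) in NaJa-G, and in NaJa-F it was -0.21 ± 0.07 (SE, adjusted p = 0.033), which was not called. Its response in NaJa-G changed by 0.10 ± 0.10 (SE, adjusted p = 0.422) between days, which was not called, in contrast to the 25 genes whose response in that line changed.

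Of the other fatty acid genes, Fasn and Acly had the larger responses. Fasn was -0.69 ± 0.09 (SE, adjusted p = 1.16e-07) at day 1 and -0.42 ± 0.10 (SE, adjusted p = 0.000894) at day 5 in NaJa-G, where without DMSO day 5 replicate 3 it was -0.29 with an adjusted p of 0.049, and -0.42 ± 0.10 (SE, adjusted p = 0.000528) at day 1 in NaJa-D. Acly was lower in NaJa-G at both days, in NaJa-D at day 5 and in NaJa-F at day 5, where it was -0.39 ± 0.07 (SE, adjusted p = 5.08e-05). Acaca, acetyl-CoA carboxylase, which makes malonyl-CoA, was called in NaJa-G at day 5 alone, at -0.36 ± 0.08 (SE, adjusted p = 0.000384), and without DMSO day 5 replicate 1 at -0.31 with an adjusted p of 0.0134. It shares 30.4% of its 50-base stretches with transcripts of other genes and is uncertain in the same way.

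Scd1 and Scd2 encode stearoyl-CoA desaturases, which make oleate from stearate. Scd1 in NaJa-D was at 273, 303 and 308 CPM in DMSO at day 1, 415, 420 and 362 CPM in DMSO at day 5, 204, 216 and 262 CPM in encorafenib at day 1 and 325, 300 and 293 CPM in encorafenib at day 5. Scd1 in NaJa-F was at 129.6, 126 and 109.6 CPM in DMSO at day 1, 169, 179.8 and 176 CPM in DMSO at day 5, 128, 123 and 121 CPM in encorafenib at day 1 and 141 and 129.7 CPM in encorafenib at day 5. Scd1 in NaJa-G was at 139, 121 and 116 CPM in DMSO at day 1, 346 and 359 CPM in DMSO at day 5, 214, 205 and 223 CPM in encorafenib at day 1 and 266, 274 and 265 CPM in encorafenib at day 5. In NaJa-G the encorafenib libraries of day 1 were above the DMSO libraries of day 1, and at day 5 they were below. In NaJa-D the encorafenib libraries were below at both days, without overlap. The Scd1 response at day 1 was called in opposite directions, -0.38 ± 0.08 (SE, adjusted p = 0.000197) in NaJa-D and 0.78 ± 0.08 (SE, adjusted p = 7.45e-10) in NaJa-G, with a difference of 1.16 ± 0.11 (SE, adjusted p = 2.3e-09). At day 5 Scd1 was lower in each line, by -0.38 ± 0.08 (SE, adjusted p = 0.000364) in NaJa-D, -0.37 ± 0.09 (SE, adjusted p = 0.00165) in NaJa-F and -0.39 ± 0.09 (SE, adjusted p = 0.00053) in NaJa-G, though without encorafenib day 5 replicate 2 the NaJa-F value was -0.33 with an adjusted p of 0.0281. Scd2, the most abundant of the 31 genes per length in NaJa-D DMSO day 1, at 539 CPM per kb, was 0.76 ± 0.07 (SE, adjusted p = 3.23e-10) at day 1 and -0.69 ± 0.09 (SE, adjusted p = 1.16e-07) at day 5 in NaJa-G.

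Fads1 and Fads2 encode the desaturases of polyunsaturated fatty acids. Fads1 in NaJa-D was at 142, 162 and 162 CPM in DMSO at day 1, 180.2, 179 and 158 CPM in DMSO at day 5, 78.4, 89.2 and 106 CPM in encorafenib at day 1 and 132, 131 and 131 CPM in encorafenib at day 5. Fads1 in NaJa-F was at 127, 132 and 122 CPM in DMSO at day 1, 144, 145 and 143 CPM in DMSO at day 5, 107, 110.1 and 107 CPM in encorafenib at day 1 and 128 and 129 CPM in encorafenib at day 5. Fads1 in NaJa-G was at 162, 147 and 145 CPM in DMSO at day 1, 240.5 and 244 CPM in DMSO at day 5, 123, 114 and 127 CPM in encorafenib at day 1 and 164, 176 and 166 CPM in encorafenib at day 5. For Fads1 the encorafenib libraries were below the DMSO libraries of the same line and day throughout. The response was -0.78 ± 0.07 (SE, adjusted p = 6.23e-10) in NaJa-D at day 1, the largest fall of the 31 genes in that comparison, and -0.39 ± 0.07 (SE, adjusted p = 7.18e-05) at day 5. In NaJa-G it was -0.32 ± 0.07 (SE, adjusted p = 0.000349) at day 1 and -0.53 ± 0.08 (SE, adjusted p = 3.96e-06) at day 5, and in NaJa-F neither day was called. Fads2 was lower in NaJa-D at day 1, at -0.51 ± 0.09 (SE, adjusted p = 2.56e-05), and at day 5 in NaJa-D and NaJa-G. The day 5 call in NaJa-D was lost without DMSO day 5 replicate 1 (-0.27, adjusted p = 0.0359), DMSO day 5 replicate 2 (-0.32, adjusted p = 0.0157) and encorafenib day 5 replicate 3 (-0.31, adjusted p = 0.0183), and that in NaJa-G without DMSO day 5 replicate 3 (-0.33, adjusted p = 0.0281).

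**Figure D4:**
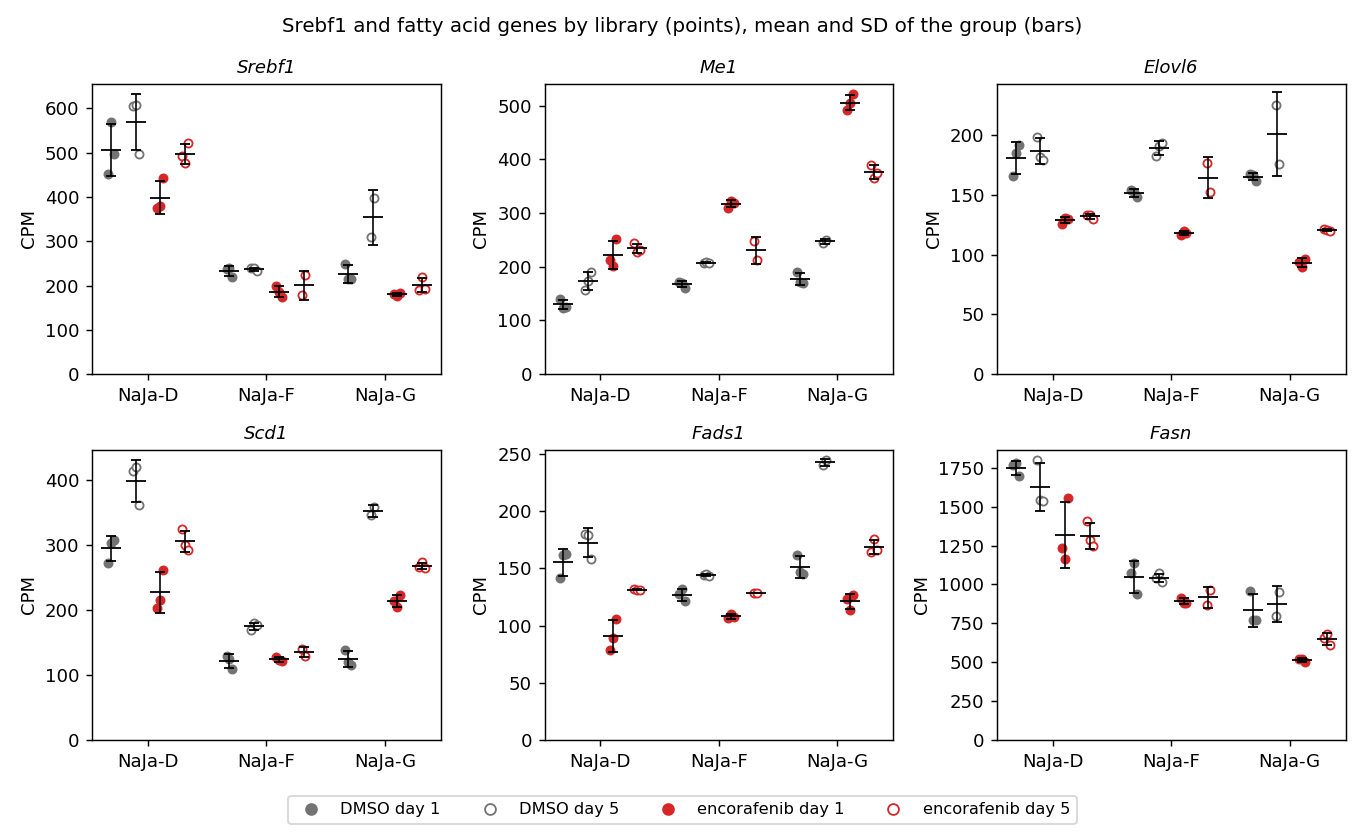
CPM of Srebf1 and 5 fatty acid genes in every library (points, grey for DMSO and red for encorafenib, filled for day 1 and open for day 5) with the mean and SD of each group (bars) by cell line. Me1 is higher and Elovl6 lower in encorafenib than in DMSO of the same day in each line, and Scd1 in NaJa-G is higher in encorafenib at day 1 and lower at day 5.

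The change of the encorafenib response between day 1 and day 5 was tested as an interaction. In NaJa-G it was called for 25 of 31 genes, all negative, against 31.7% of all genes in either direction, with a median of -0.88. All 7 mevalonate genes, all 11 sterol genes and all 4 regulators were among the 25, as were Me1, Scd1 and Scd2. The value of Srebf1, -0.48 ± 0.15 (SE, adjusted p = 0.00848), lost its call without each of 8 of the NaJa-G libraries, with -0.31 (adjusted p = 0.124) without DMSO day 5 replicate 3. Acly, Acaca, Fasn, Elovl6, Fads1 and Fads2 were not called. In NaJa-D the change was called for 5 genes, all negative, against 7.29% of all genes. These were Hmgcs1, Lss, Tm7sf2, Hsd17b7 and Stard4. In NaJa-F it was called for 1 gene, against 5.88% of all genes. Of the genes with a promoter window, the 19 with an NF-Y box had a median change of -0.91 in NaJa-G (range -1.83 to 0.27) and the 5 without it a median of -0.24 (range -1.03 to 0.10). The corresponding medians were -0.66 and -0.51 for encorafenib at day 5 and 0.66 and 0.41 for time in DMSO. All but Acat2 of the 5 without the box were fatty acid or desaturase genes, so box and role cannot be told apart here. Acat2, a mevalonate gene without the box, was among the 25 called, and Fasn, a fatty acid gene with it, was not. The medians are descriptions with no test, and for Me1 and Dhcr7 the box lay only in the window of an alternative start.

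The response was also compared between lines. At day 1 the response of NaJa-G differed from that of NaJa-D for 19 genes, 18 of them higher in NaJa-G, against 36.4% of all genes in either direction. Against NaJa-F it differed for 9 genes, 7 of them higher, against 33.5%. The 1 gene with a lower response in NaJa-G than in NaJa-D was Elovl6, and against NaJa-F these were Fasn and Elovl6. At day 5 the response of NaJa-G differed from that of NaJa-F for 20 genes, 19 of them lower, against 24.2% of all genes, and from that of NaJa-D for 11 genes, 10 of them lower, against 21.9%. The 1 gene with a higher response was Me1 against NaJa-F and Hsd17b7 against NaJa-D. The responses of NaJa-F and NaJa-D differed for 6 genes at day 1, against 8.79%, and for 4 at day 5, against 8.85%, all higher in NaJa-F. The 6 were Sqle, Msmo1, Ebp, Scd1, Fads1 and Fads2, and the 4 were Lss, Cyp51, Insig1 and Stard4. The counts at day 1 between NaJa-F and NaJa-D rest on single libraries, since they ranged from 1 without NaJa-D encorafenib day 1 replicate 1 to 13 without replicate 3 of that group. Without the NaJa-G DMSO day 5 replicate 3, the count between NaJa-G and NaJa-D at day 5 was 7.

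In DMSO, with both days averaged, most genes were higher in NaJa-D than in the other lines. Against NaJa-D, NaJa-F was lower for 23 and higher for 3 genes (29.0% and 32.6% of all genes), with a median of -0.56, and all 11 sterol genes were among the 23. NaJa-G was lower than NaJa-D for 18 and higher for 7 genes (34.1% and 33.3% of all genes), with a median of -0.24. With day 1 alone it was lower for 17 and higher for 2, with a median of -0.37, and with day 5 alone it was lower for 14 and higher for 7, with a median of -0.19. The largest difference was that of Cyp51, at -2.23 ± 0.06 (SE, adjusted p = 1.2e-23) in NaJa-G against NaJa-D. Its mean in NaJa-D was 1898 ± 162 CPM at day 1 and 2320 ± 240 CPM at day 5 (SD, n = 3 each). In NaJa-G it was 319 ± 18.5 CPM at day 1 (SD, n = 3) and 622.3 ± 12.8 CPM at day 5 (SD, n = 2), so the lines did not overlap at either day. Dhcr7 was -1.41 ± 0.06 (SE, adjusted p = 9.29e-19) in NaJa-G and -1.26 ± 0.05 (SE, adjusted p = 6.59e-18) in NaJa-F. Srebf1 was -0.93 ± 0.07 (SE, adjusted p = 4.24e-12) in NaJa-G and -1.19 ± 0.07 (SE, adjusted p = 6.05e-15) in NaJa-F, and Scd2 was -1.12 ± 0.06 (SE, adjusted p = 2.6e-16) and -1.39 ± 0.05 (SE, adjusted p = 6.07e-19). The Scd2 value in NaJa-G was -1.60 with day 1 alone and -0.63 with day 5 alone. Among the 7 genes higher in NaJa-G were Me1, at 0.48 ± 0.05 (SE, adjusted p = 3.93e-09), and Stard4, at 0.38 ± 0.04 (SE, adjusted p = 1.01e-09).

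NaJa-G was higher than NaJa-F for 15 genes and lower for 3 (25.2% and 29.2% of all genes), with a median of 0.16, but this rested on day 5. With day 1 alone NaJa-G was higher for 4 genes and lower for 11, with a median of -0.04, and with day 5 alone it was higher for 21 and lower for 2, with a median of 0.40. Among the genes called with both days averaged, Scd2 was 0.27 ± 0.06 (SE, adjusted p = 0.000138) with both days and -0.28 with day 1 alone, with an adjusted p of 0.0023.

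**Figure D5:**
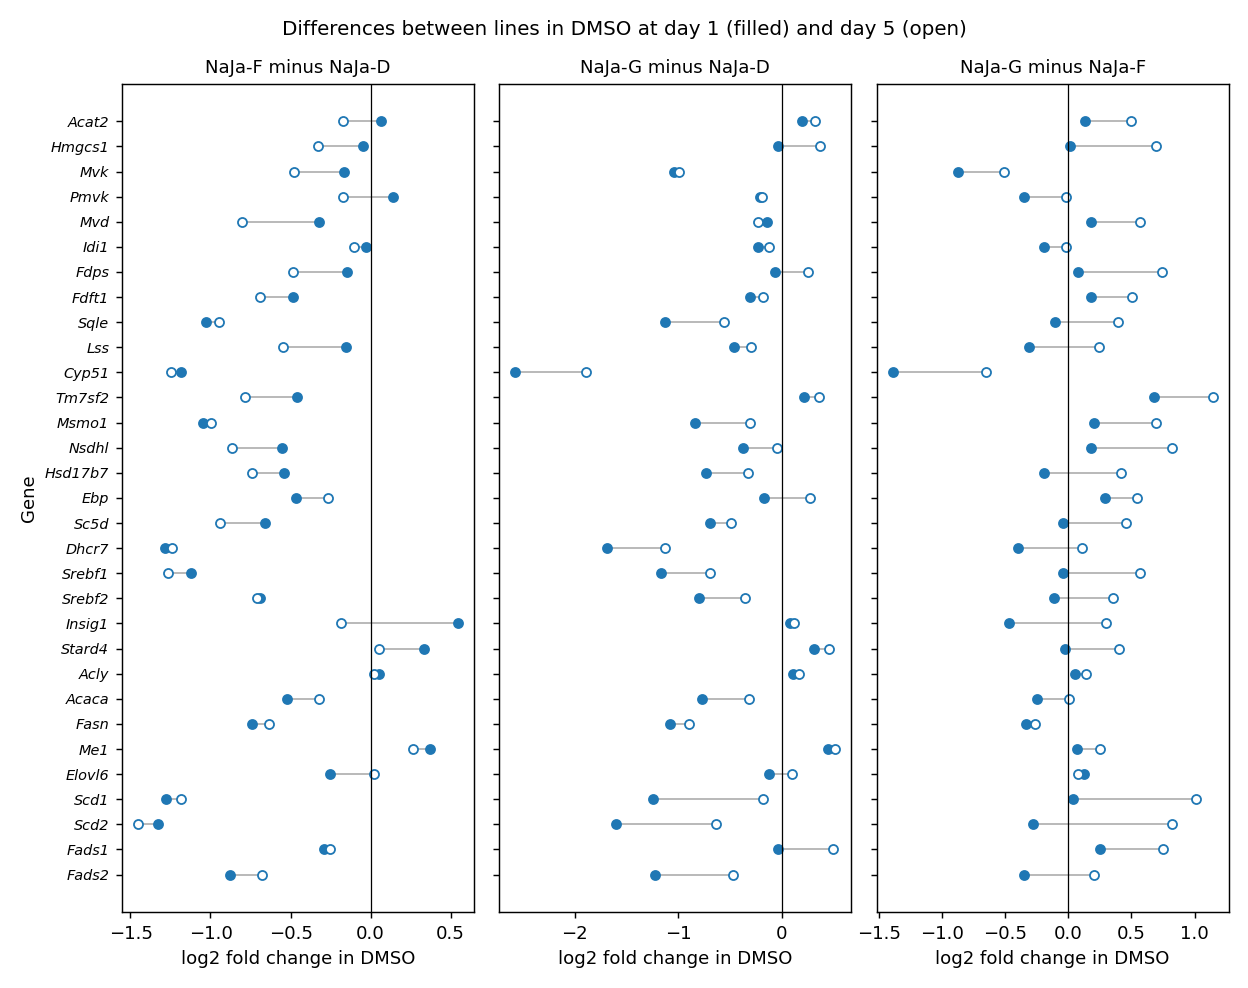
Log2 fold changes between lines in DMSO for the 31 genes (rows), at day 1 (filled) and day 5 (open), for NaJa-F against NaJa-D, NaJa-G against NaJa-D and NaJa-G against NaJa-F (panels). In the right panel the median moves from -0.04 at day 1 to 0.40 at day 5.

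Genes of the neighbouring pathways were read from 4 further lists, against the shares of all genes given above. Of 11 other sterol genes, which cover further enzymes, SREBP partners and lipoprotein receptors, those called higher and lower in encorafenib at day 1 were 1 and 6 (NaJa-D), 1 and 2 (NaJa-F) and 3 and 4 (NaJa-G). At day 5 they were 2 and 4, 1 and 2, and 3 and 6. The lipoprotein receptor gene Lrp8 was lower in each of the 6 comparisons, with -1.30 ± 0.05 (SE, adjusted p = 8.46e-19) at day 1 and -1.15 ± 0.06 (SE, adjusted p = 3.67e-16) at day 5 in NaJa-G.

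Of 12 other lipid synthesis genes in the table, those called higher and lower at day 1 were 3 and 4 (NaJa-D), 4 and 1 (NaJa-F) and 5 and 3 (NaJa-G). At day 5 they were 0 and 4, 1 and 0, and 2 and 6. Acss2, which makes acetyl-CoA from acetate, was 1.82 ± 0.09 (SE, adjusted p = 1.23e-16) at day 1 in NaJa-G and 0.20 ± 0.08 (SE, adjusted p = 0.034) at day 5, which was not called. Acsl3, a fatty acyl-CoA synthetase, was -1.21 ± 0.08 (SE, adjusted p = 2.59e-13) at day 5 in NaJa-G. Lpin1, a phosphatidate phosphatase, went from 0.60 ± 0.09 (SE, adjusted p = 1.56e-06) at day 1 to -1.17 ± 0.09 (SE, adjusted p = 3.22e-12) at day 5 in that line.

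Of 5 receptors and targets of the oxysterol receptor LXR in the table, those called higher and lower at day 1 were 2 and 1 (NaJa-D), 1 and 2 (NaJa-F) and 2 and 2 (NaJa-G). At day 5 they were 2 and 0, 0 and 1, and 0 and 2. Abca1, a cholesterol exporter, was -1.15 ± 0.27 (SE, adjusted p = 0.00065) in NaJa-D at day 1, -1.78 ± 0.13 (SE, adjusted p = 1.39e-11) in NaJa-F at day 5 and -1.15 ± 0.07 (SE, adjusted p = 3.89e-14) in NaJa-G at day 5. The NaJa-D value rests on low levels, 0.69 to 0.84 CPM in DMSO and 0.30 to 0.36 CPM in encorafenib. Lpcat3, a phospholipid acyltransferase, was 1.48 ± 0.08 (SE, adjusted p = 3.88e-16) at day 1 in NaJa-G and -0.19 ± 0.09 (SE, adjusted p = 0.0553) at day 5, which was not called.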

How the data were processed

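RNA was sequenced from 34 libraries of 12 groups. Per the submitters' processing notes, reads were trimmed with Trimmomatic 0.39 and aligned to GRCm38/mm10 with STAR 2.5.2b. The authors deposited a table of raw counts per gene, and the counter, its annotation and its strand setting are not given in the sources used here. Genes shared by near-identical copies are therefore uncertain, and the share of 50-base stretches found in other transcripts was computed from GENCODE M21.

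The deposited counts of 14107 genes were scaled by TMM (edgeR 4.0.16) and fitted with limma 3.58.1 (voom) in R 4.3.3, with 1 mean per group over all 34 libraries, and p-values were adjusted by Benjamini-Hochberg over all genes, with calls below 0.01. The methods of the study name limma, TMM and this threshold, and voom was added here. Alternatives were edgeR's quasi-likelihood test, DESeq2 1.42.0, limma-trend, RLE and library-size scaling, a replicate block, only the groups compared, the days taken singly and each library left out. The comparison of days within encorafenib was added after seeing the data.

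On simulated data for encorafenib against DMSO in NaJa-G at day 5, with 200 of 14107 genes changed, limma recovered 61 of 100 genes at a fold of 1.5 and 83 of 100 at a fold of 2, with 0 false calls. All other genes had the same simulated mean in every group. In the real comparison 28.5% of all genes were called higher and 24.7% lower, so these rates need not hold there. Libraries held 46007050 to 80121299 counts, and whether this depth limited the calls of low genes such as Fdps was not tested. The 31 genes, and the lists of other lipid genes and of cell markers, were chosen with earlier results of these data known. Genes given by library were those 2 of each role with the largest mean absolute log2 fold change over the 6 encorafenib comparisons, plus any called in opposite directions between lines on the same day. Genes of other lists were named where called at an absolute log2 fold change of 1 or more. Some genes of those lists are not reported here by name.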

Additional observations from a re-analysis of the deposited data

Results flagged for a closer look

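The encorafenib response was tested for a difference between days and between lines, and the number of the 31 genes for which such a difference was called is given here. For day 5 against day 1 the number was 5 (NaJa-D), 1 (NaJa-F) and 25 (NaJa-G), against 7.29%, 5.88% and 31.7% of all genes. At day 1 it was 6 between NaJa-F and NaJa-D, 19 between NaJa-G and NaJa-D and 9 between NaJa-G and NaJa-F. The shares of all genes there were 8.79%, 36.4% and 33.5%. At day 5 it was 4, 11 and 20 for the same pairs of lines, against 8.85%, 21.9% and 24.2%. All 25 genes in NaJa-G had a lower response at day 5, with a median over the 31 genes of -0.88. The NaJa-G values at day 5 rest on 2 DMSO libraries, and leaving out 1 NaJa-G library at a time gave 23 to 27 genes in place of 25. The 5 fibroblast markers summed to 19.2 to 21.7 CPM in those DMSO libraries and to 111 to 125 CPM in encorafenib at day 5. Their part in these differences was not tested.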

How the results depend on the processing

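The counts of the 31 genes called were recomputed with edgeR, DESeq2, limma-trend, other scalings, a replicate block, only the groups compared and each library left out. Library-size scaling moved the median of all genes by over 0.1 in 6 comparisons, to 0.14 (NaJa-F against NaJa-D), 0.13 (NaJa-G against NaJa-D), 0.18 (DMSO time, NaJa-D), 0.11 (encorafenib time, NaJa-D and NaJa-F) and from 0.03 to -0.10 (response of NaJa-G minus NaJa-D at day 1). With only the groups compared, the count was 6 in place of 15 for encorafenib in NaJa-D at day 1, 23 in place of 15 for DMSO time in NaJa-F and 7 in place of 15 for encorafenib time in NaJa-D. With library size alone it was 25 for DMSO time in NaJa-F, 25 for encorafenib time in NaJa-D and 16 in place of 7 for encorafenib time in NaJa-F. The response between days in NaJa-D was called for 5 genes, with 11 by library size and 1 with only the groups compared. In NaJa-F it was called for 1 gene, with 2 by edgeR, 2 by DESeq2, 2 by limma-trend, 4 by library size and 8 with only the groups compared. Between lines, the response at day 1 with only the groups compared gave 0 in place of 6 (NaJa-F and NaJa-D) and 7 in place of 19 (NaJa-G and NaJa-D). At day 5 it gave 7 by DESeq2 and 8 by library size in place of 4 (NaJa-F and NaJa-D), and 18 by library size and 6 with only the groups compared in place of 11 (NaJa-G and NaJa-D). Fewer samples enter the fits of only the groups compared. The cause of the other changes was not tested.

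Leaving out 1 library at a time gave 3 to 6 genes for encorafenib in NaJa-F at day 1 (lowest without encorafenib day 1 replicate 2), 1 to 3 in NaJa-F at day 5 and 4 to 6 for encorafenib time in NaJa-F. The response between days gave 3 to 6 in NaJa-D and 1 to 2 in NaJa-F. The response of NaJa-F against NaJa-D gave 1 to 13 at day 1 and 3 to 8 at day 5 (highest without NaJa-D DMSO day 5 replicate 3), and that of NaJa-G against NaJa-D gave 7 to 12 at day 5. The counts of the other comparisons stayed within 1.5 times. Encorafenib values near 0 that were not called changed sign with 1 library left out, which gave -0.047 to 0.106 for Pmvk in NaJa-D and -0.078 to 0.0094 for Pmvk in NaJa-F at day 5, and -0.035 to 0.082 for Scd1 in NaJa-F at day 1. With day 5 alone, Insig1 between NaJa-F and NaJa-D was -0.18. With day 1 alone, Hmgcs1 was -0.037 and Fads1 -0.039 in NaJa-G against NaJa-D. Against NaJa-F, Sc5d was -0.039, Srebf1 -0.042, Stard4 -0.021 and Scd2 -0.28.

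Libraries with the same replicate number were not treated as pairs. The correlations of their deviations ranged from -0.156 to 0.215, which cannot settle whether they were paired, with so few libraries per group. The replicate block moved no count by over 1.5 times and ended 9 of 367 single calls. The filter on low counts removed no gene in any variant tried.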

Other observations

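Genes of fatty acid oxidation, the breakdown route opposite to the synthesis described above, were mostly higher in encorafenib at day 1. Of the 12 genes of that list in the table, those called higher were 9 (NaJa-D), 10 (NaJa-F) and 10 (NaJa-G), with 0 lower in each line, against 23.7%, 17.5% and 35.3% of all genes called higher. Their median log2 fold changes were 0.47, 0.39 and 0.68. At day 5, those called higher were 7, 3 and 6 in the same order, against 18.3%, 9.70% and 28.5% of all genes. Those called lower were 0, 1 and 1, against 14.7%, 8.50% and 24.7%, and the medians were 0.32, 0.10 and 0.32. Cpt1a, which admits fatty acids to the mitochondrion, was named after its values were seen. It was called higher in each of the 6 comparisons, with 0.92 ± 0.05 (SE, adjusted p = 1.71e-15) in NaJa-G at day 1. Pdk4, a kinase that restrains pyruvate oxidation, was 1.74 ± 0.46 (SE, adjusted p = 0.00304) in NaJa-F and 2.36 ± 0.22 (SE, adjusted p = 1.46e-10) in NaJa-G at day 1. The NaJa-F value rests on very low levels, 0.034, 0.059 and 0.126 CPM in DMSO and 0.387, 0.280 and 0.130 CPM in encorafenib. In NaJa-G Pdk4 was at 0.48 to 0.62 CPM in DMSO and 2.63 to 3.03 CPM in encorafenib at day 1. In NaJa-G the response of 9 of the 12 genes was lower at day 5 than at day 1. A change of the response in either direction was called for 31.7% of all genes there. Apoe, an apolipoprotein of cholesterol transport and an LXR target, was -1.91 ± 0.31 (SE, adjusted p = 3.45e-06) in NaJa-G at day 1.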
